A study of Rattus norvegicus with 20 samples.

Results

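This account concerns histidine added to doxorubicin, set against doxorubicin alone, in cultures from newborn rats that the labels call cardiomyocytes, the muscle cells of the heart. The comparison takes 10 of the series' 20 RNA sequencing libraries. In 5 of them the cultures received doxorubicin at 1 µM, and in the other 5 they received histidine at 100 nM together with doxorubicin at 1 µM; both groups were kept for 72 h. The members are these 10 libraries, chosen by their treatment labels, and all 15449 genes that passed a filter on low counts were tested out of 15503 in the deposited table. The other 10 libraries, 5 with phosphate-buffered saline (PBS) and 5 with histidine alone, shared the fit and served to show the histidine difference without the drug. Whether the 5 libraries of a group came from 5 cultures is not in the labels. The p-values therefore cover the spread among these libraries, and that spread may be technical.

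Doxorubicin, a chemotherapy drug of the anthracycline class, locks topoisomerase II onto broken DNA, activates p53, stops cell division and damages heart muscle through effects on DNA, mitochondria and redox balance. Histidine is an amino acid that cells build into protein and turn into histamine and into carnosine, a dipeptide abundant in muscle. The comparison asks whether histidine at this dose alters the state of cultures that are already under the drug.

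No gene passed the test. edgeR's quasi-likelihood F test, with Benjamini-Hochberg adjustment over all genes and a threshold of 0.05, called 0 of 15449 genes (0%). The smallest adjusted p was 0.077, shared by Chaf1b and Prkaa2. At an unadjusted p under 0.05 there were 1940 genes (12.6%), of which 1278 (8.27%) were lower with histidine and 662 (4.29%) higher. The 2 groups did not overlap for 163 genes (1.06%), 87 of them higher (0.563%) and 76 lower (0.492%). Of all genes 51.9% had a log2 fold change below 0. DESeq2's Wald test on the same counts called 20 genes, 6 higher and 14 lower, whereas limma on log2(FPKM + 1), where FPKM scales fragments to gene length and library size, called 0, with 1579 at an unadjusted p under 0.05. When edgeR was fitted on these 2 groups alone, which then do not share the estimate of spread with the other 2, 767 of 15232 genes (5.04%) had an unadjusted p under 0.05 and the smallest adjusted p was 0.708. The counts at an unadjusted p below use the fit of all 4 groups. The differences were small for most genes. The 95% interval of the log2 fold change lay within 1.5-fold in either direction for 9552 genes (61.8%) and within 2-fold for 12574 genes (81.4%). The median distance from the estimate to either end of the interval was 0.29 on the log2 scale. A gene that misses the threshold is therefore not shown to be the same in both groups, but for most genes a difference of 2-fold or more lay outside the interval. These intervals rest on the spread of all 4 groups and were not computed for the 2 groups alone.

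**Figure D1:**
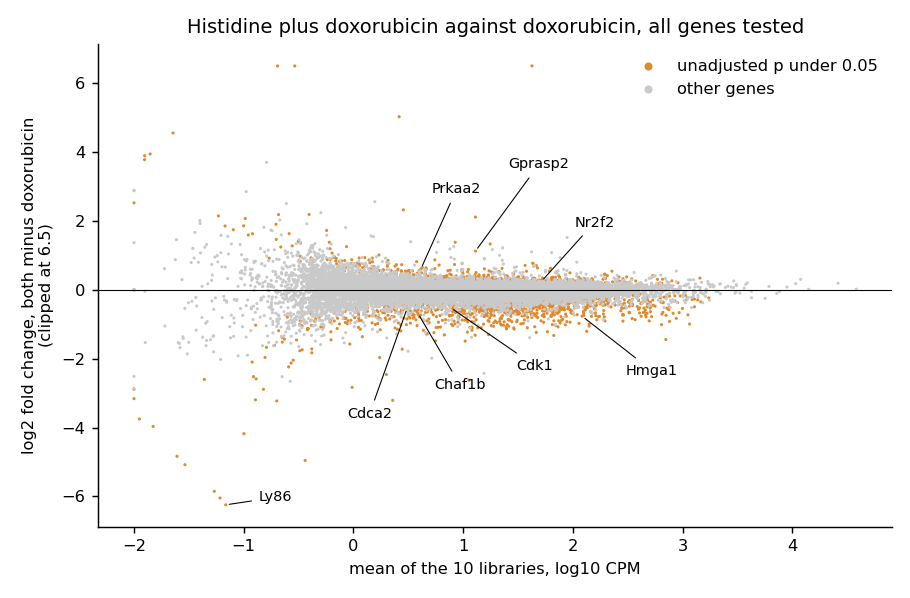
Each point is a gene, with the log10 of its mean level over the 10 libraries in CPM (TMM-scaled counts per 1000000 reads) on the x axis and the log2 fold change of histidine plus doxorubicin against doxorubicin on the y axis. The 1940 genes at an unadjusted p under 0.05 are orange, most of them lie below 0, and no gene passed after adjustment.

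One library of the doxorubicin group stood apart, and the lists and many of the genes below are given with and without it. Doxorubicin replicate 4 lay at 108 on the first principal component of the 10 libraries, which held 34.0% of the variance, against -18.8 to -8.76 for the other 9. Its correlations with them were 0.930 to 0.939, whereas those 9 correlated at 0.969 or more with one another. It was also the deepest of the 10, with 83624651 reads against 54072746 to 71856131, and its FPKM values summed to 517265 against 373417 to 387266. Its levels followed gene length: relative to the other 4 doxorubicin libraries the median log2 difference was 0.62 in the shortest quartile of genes, with lengths up to 1800 bases, and -0.40 in the longest, from 4272 bases. The fold changes of the comparison carried the opposite order, with a median of -0.19 in the shortest quartile and 0.098 in the longest. Without this library these medians were -0.024 and 0.027. Doxorubicin replicate 3 lay apart on the second component (-56.7 against -7.59 to 20.04). Without replicate 4, 4 of 15454 genes passed (0.0259%), and 1127 (7.29%) had an unadjusted p under 0.05, split 548 higher (3.55%) and 579 lower (3.75%). Without replicates 3 and 4, an alternative added after the data were seen, 2 of 15467 passed (0.0129%) and 787 (5.09%) had an unadjusted p under 0.05, 2.62% of genes higher and 2.46% lower.

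**Figure D2:**
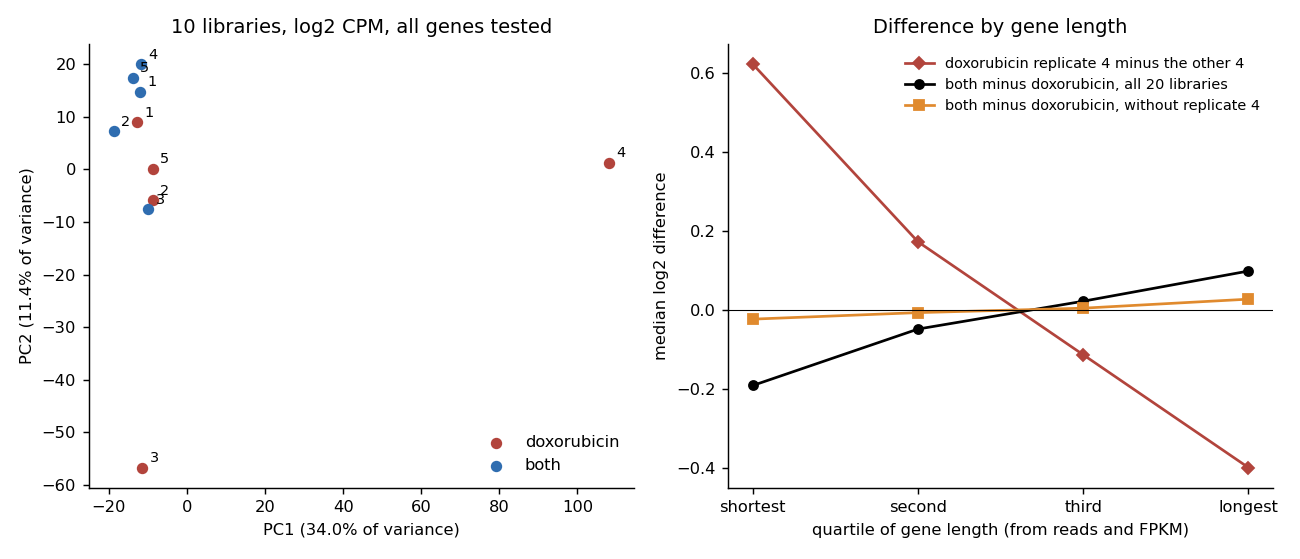
Left, the first 2 principal components of the 10 libraries, labelled by replicate number, with doxorubicin in red and both compounds in blue. Doxorubicin replicate 4 lies at 108 on the x axis and the other 9 between -18.8 and -8.76. Right, median log2 differences by quartile of gene length; the line of doxorubicin replicate 4 falls from 0.62 to -0.40, and that of the comparison without it stays between -0.024 and 0.027.

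The labels call the cultures cardiomyocytes, yet markers of heart muscle made up a small share of the reads. Of 18 cardiomyocyte markers 17 were tested, and they summed to 198 to 333 CPM with doxorubicin and 218 to 243 CPM with both, against 1188 ± 60.3 CPM (SD, n = 5) with PBS. They took 0.0209% to 0.0300% of reads, while the 16 fibroblast markers took 6.59% to 10.8%. Fibroblast markers exceeded them without the drug too, at 112340 ± 2485 CPM with PBS. In such whole-culture libraries fewer cells of a type and less RNA per cell cannot be told apart.

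The 2 genes with the smallest p differed in opposite directions. Chaf1b encodes a subunit of the chromatin assembly factor that loads histones onto freshly copied DNA (ENSRNOG00000001692, chromosome 11, 33200981 to 33221070, plus strand, mRatBN7.2). It stood at 3.94, 4.15, 5.31, 5.91 and 4.40 CPM with doxorubicin and 2.90, 2.76, 2.78, 2.88 and 3.52 CPM with both. All 5 libraries with histidine lay below all 5 without it. The log2 fold change was -0.68 ± 0.11 (SE, n = 5 per group; 95% interval -0.90 to -0.45), with an adjusted p of 0.077 from edgeR. With PBS the gene was at 12.9 ± 1.14 CPM, and histidine alone moved it by 0.11 ± 0.11. It passed when doxorubicin replicate 1, 2 or 4 was left out (adjusted p = 0.0148, 0.0195 and 0.0402), without replicate 5 of both compounds (0.0355), with library totals in place of TMM (0.0332) and in DESeq2's test (3.6e-05). It did not when doxorubicin replicates 3 and 4 were left out (adjusted p = 0.189). Of the 10 edgeR fits that left out 1 library Chaf1b passed in 4, and its adjusted p reached 0.326. Nor did it pass with a replicate block or with only the 2 groups fitted, where edgeR's smallest adjusted p of any gene was 0.154 and 0.708.

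Prkaa2 encodes the alpha-2 catalytic subunit of AMP-activated protein kinase, the energy sensor whose alpha-2 form is the main one in heart and skeletal muscle (ENSRNOG00000007706, chromosome 5, 119813226 to 119879543, minus strand). It was named after its values were seen, since its mean lies under the 5 CPM set for naming genes. Its levels were 3.24, 3.15, 3.56, 3.68 and 2.70 CPM with doxorubicin and 4.64, 6.003, 4.21, 5.18 and 4.77 CPM with both. Here every library with histidine lay above every library without it. The log2 fold change was 0.60 ± 0.10 (95% interval 0.39 to 0.82, adjusted p = 0.077 from edgeR). It passed without doxorubicin replicate 4 (0.65, adjusted p = 0.0402) and without replicates 3 and 4 (0.71, adjusted p = 0.0322). The former was the only pass among the 10 edgeR fits that left out 1 library, where its adjusted p reached 0.326. With a replicate block or only the 2 groups fitted Prkaa2 did not pass, and edgeR's smallest adjusted p of any gene was 0.154 and 0.708. With PBS the mean of Prkaa2 was 6.24 ± 0.209 CPM and with histidine alone the difference was -0.14 ± 0.10. The interaction, which tests whether the histidine difference is itself different under the drug, was 0.75 ± 0.14 with an adjusted p of 0.189 and did not pass edgeR's test. DESeq2 called both the difference under the drug (adjusted p = 0.00012) and the interaction (adjusted p = 0.0019), and with library totals edgeR called the difference (adjusted p = 0.0332).

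Genes of dividing cells had lower values with histidine in most members, with or without the libraries that stood apart. Of the 35 cell cycle and mitosis genes tested, 30 had a log2 fold change below 0, 0 passed the adjusted test, and 14 (40%) had an unadjusted p under 0.05, all of them lower, beside 8.27% of all genes in that direction. The median was -0.25, against -0.0091 over all genes tested. It was -0.38 without doxorubicin replicate 4, with 23 members at an unadjusted p under 0.05 beside 3.75% of all genes lower, and -0.22, with 10 beside 2.46%, without replicates 3 and 4. With histidine alone against PBS the median of the same genes was -0.028. Their summed level was 191, 241, 303, 161 and 236 CPM with doxorubicin and 195, 226, 221, 155 and 175 CPM with both, so the sums overlapped. With PBS the sum was 1752 ± 30.2 CPM, so the cultures under the drug held little of this signal in either group.

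Several genes of mitosis separated the 2 groups or nearly so. Cdk1, the kinase that drives entry into mitosis, stood at 7.79, 7.995, 10.6, 11.4 and 7.41 CPM with doxorubicin and 7.08, 6.99, 7.41, 5.12 and 4.94 CPM with both. The highest value with histidine, 7.406 CPM, lay just below the lowest without it, 7.412 CPM, and the log2 fold change was -0.52 ± 0.13 (edgeR adjusted p = 0.393). Cdca2, which brings a protein phosphatase to chromosomes as mitosis ends, stood at 3.21, 3.67, 4.23, 3.01 and 4.15 CPM with doxorubicin and 2.65, 2.76, 2.71, 2.39 and 2.16 CPM with both. Its groups did not overlap either, and its log2 fold change of -0.53 ± 0.10 (edgeR adjusted p = 0.167) passed without doxorubicin replicate 4 (-0.59, adjusted p = 0.0402). Ttk, the spindle checkpoint kinase, was at 2.23, 2.18, 3.58, 1.40 and 3.03 CPM with doxorubicin and 1.82, 1.69, 1.57, 1.55 and 1.64 CPM with both. Doxorubicin replicate 4 was the lowest of all 10, and without it Ttk passed at -0.74 (edgeR adjusted p = 0.0402), against -0.59 ± 0.16 with it. Doxorubicin replicate 3 was the highest of all 10, and neither Cdca2 nor Ttk passed when replicates 3 and 4 were both left out. Plk4, the kinase of centriole duplication, had a log2 fold change of -0.49 ± 0.10, and Birc5, which encodes survivin of the chromosomal passenger complex, one of -0.75 ± 0.17. Neither passed edgeR's test (adjusted p = 0.257 and 0.349), whereas DESeq2 called both, along with Chaf1b and Cdca2. Cdca2, Ttk, Plk4 and Birc5 were singled out after their values were seen, Ttk and Birc5 also by the rule for list members. The proliferation antigen Mki67 was at -0.27 ± 0.19 and topoisomerase Top2a, the drug's target in dividing cells, at -0.29 ± 0.24. Their values without doxorubicin replicate 4 were -0.42 and -0.50, and neither passed (adjusted p = 0.596 and 0.594).

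**Figure D3:**
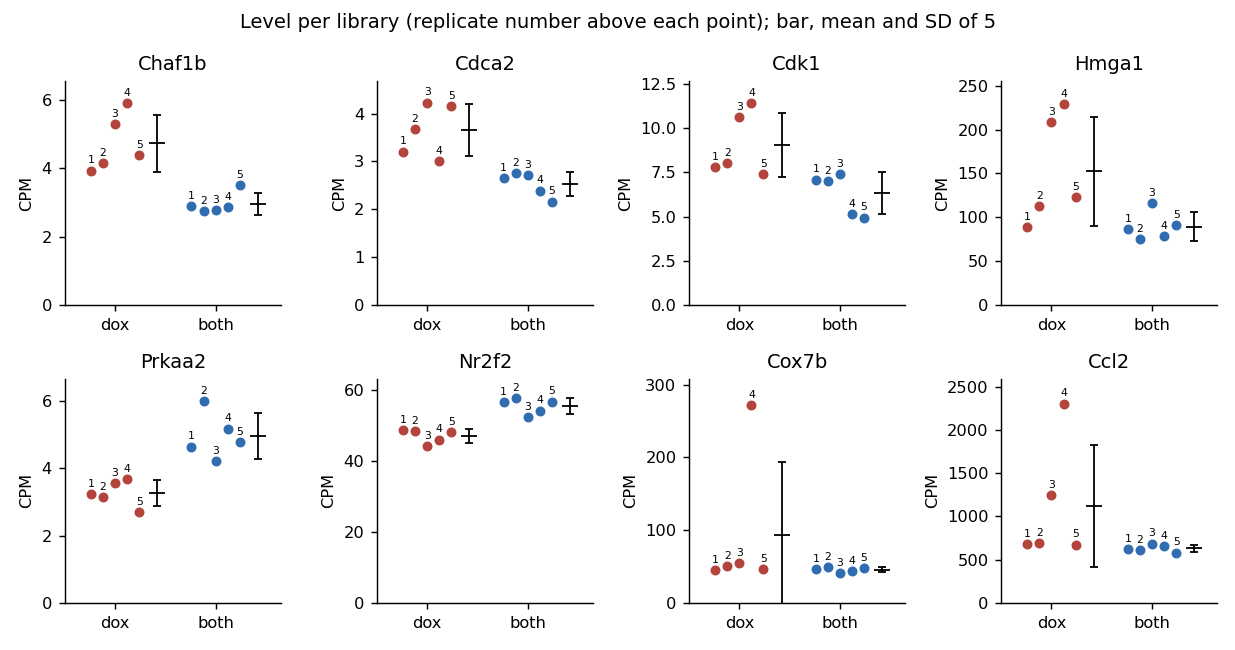
Levels of 8 genes in CPM on linear axes that start at 0, each point a library with its replicate number, red for doxorubicin and blue for both compounds, and the black bar the mean and SD of 5. Chaf1b, Cdca2, Cdk1, Prkaa2 and Nr2f2 separate the groups, whereas the means of Cox7b and Ccl2 follow doxorubicin replicate 4 or replicates 3 and 4; the SD of Cox7b reaches below the axis.

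The stretches just upstream of the start sites of the cell cycle genes with the smallest p are shown because genes of late cell cycle carry short shared elements there: the cell cycle genes homology region, here searched as TTTGAA, and the CCAAT box, searched as CCAAT, each on both strands. The sequences are RefSeq's of the build GRCr8, 120 bases each, in the direction of transcription, ending at the base before the start site, with matches in capitals.
Birc5, chr10:103572026-103572145, plus strand: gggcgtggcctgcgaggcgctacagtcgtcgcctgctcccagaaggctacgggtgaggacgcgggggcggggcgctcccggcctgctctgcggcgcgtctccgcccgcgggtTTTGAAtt
Cdk1, chr20:19265173-19265292, plus strand: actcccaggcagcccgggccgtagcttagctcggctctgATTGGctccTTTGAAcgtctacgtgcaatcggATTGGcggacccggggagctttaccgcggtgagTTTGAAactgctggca
Ttk, chr8:93634519-93634638, plus strand: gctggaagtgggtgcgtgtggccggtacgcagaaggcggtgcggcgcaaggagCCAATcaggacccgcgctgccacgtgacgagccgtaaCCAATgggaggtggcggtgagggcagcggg
Ccnb2, chr8:79981659-79981778, minus strand: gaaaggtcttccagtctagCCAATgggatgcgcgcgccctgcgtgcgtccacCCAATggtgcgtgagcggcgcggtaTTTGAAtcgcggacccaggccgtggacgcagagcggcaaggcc
Cdk1 holds 2 matches of each element, Ccnb2, which encodes cyclin B2, 1 of TTTGAA and 2 of CCAAT, Ttk 2 of CCAAT and Birc5 1 of TTTGAA. Of the 26 list members with an entry in the promoter table, 10 (38.5%) hold TTTGAA and 18 (69.2%) hold CCAAT in this window, beside 7.11% and 19.9% of all 33469 promoters of the same length. These matches describe the sequences only.

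DNA replication genes lay lower by less. Of 37 tested, 27 had a log2 fold change below 0, 0 passed, and 7 (18.9%) had an unadjusted p under 0.05, all lower, beside 51.9% of all genes below 0 and 8.27% lower. The median was -0.13, -0.13 without doxorubicin replicate 4 and -0.067 without replicates 3 and 4, where 6 members were lower beside 2.46% of all genes. After Chaf1b the smallest p belonged to Rfc3, a clamp loader subunit (-0.23 ± 0.084), Mcm5 of the replicative helicase (-0.38 ± 0.14) and Gmnn, which encodes the licensing inhibitor geminin (-0.43 ± 0.17, or -0.16 without replicates 3 and 4).

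p53 targets had values on both sides of 0. Of 37, 22 (beside 51.9% of all genes) were below 0, 0 passed, and 2 were higher (5.4%) and 4 lower (10.8%) at an unadjusted p under 0.05, close to the 4.29% and 8.27% of all genes, with a median of -0.049 that was -0.0013 without doxorubicin replicate 4. Cdkn1a, which encodes the cell cycle inhibitor p21, stood at 971, 952, 960.3, 1421 and 1048 CPM with doxorubicin and 881, 816, 1044, 1003 and 1018 CPM with both. The groups overlapped, doxorubicin replicate 4 was the highest of the 10, and the log2 fold change was -0.17 ± 0.10 (95% interval -0.38 to 0.041), or -0.045 without that library. Both groups lay far above the PBS level of 160.1 ± 10.9 CPM. Mdm2, the ligase that degrades p53, was at -0.26 ± 0.31, and 1 library with histidine, replicate 5, had 133 CPM against 460 to 544 CPM in the other 9. The stress hormone gene Gdf15 was at -0.18 ± 0.14.

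Genes named by the smallest p in each direction included few with a shared role. On the higher side the first was Nr2f2, the orphan nuclear receptor COUP-TFII that marks atrial and venous identity, at 48.8, 48.6, 44.3, 46.1 and 48.3 CPM with doxorubicin and 56.7, 57.9, 52.5, 54.3 and 56.8 CPM with both. The groups did not overlap, and the log2 fold change was 0.24 ± 0.055 (edgeR adjusted p = 0.393; DESeq2 called it). Pdzd2 (0.43 ± 0.10), the amino acid carrier family gene Slc38a6 (0.39 ± 0.10), the deubiquitinase Usp11 (0.19 ± 0.051) and Mapkbp1, a JNK pathway scaffold (0.33 ± 0.10), also had groups that did not overlap. Gprasp2, a sorting protein of G protein-coupled receptors, had the largest value on this side (1.12 ± 0.30), from 8.14 ± 3.27 CPM to 17.7 ± 3.61 CPM. The other 6 were Sox9, a transcription factor of cartilage and valve cells (0.37 ± 0.10), Sec24a of the COPII vesicle coat (0.34 ± 0.090), the guidance ligand Slit2 (0.31 ± 0.086), Plcl2 (0.72 ± 0.20), the mitochondrial magnesium channel Mrs2 (0.29 ± 0.083) and the syntaxin Stx11 (0.27 ± 0.077). Every one of the 12 had an adjusted p of 0.39.

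On the lower side, among genes with a mean of at least 5 CPM, Cdk1 came first, followed by Uchl1, a ubiquitin hydrolase, at 60.8, 67.9, 77.4, 93.7 and 61.1 CPM with doxorubicin and 52.4, 49.6, 62.1, 47.6 and 53.8 CPM with both. Its log2 fold change was -0.44 ± 0.11, and only doxorubicin replicates 1 and 5 fell within the range of the libraries with histidine. Hmga1, an architectural chromatin protein of growing cells, was at 88.7, 113, 209, 229 and 123 CPM with doxorubicin and 86.5, 75.2, 116, 78.9 and 91.1 CPM with both. Doxorubicin replicates 3 and 4 were the highest, and its value went from -0.77 ± 0.20 to -0.27 without them. B3gnt2, which builds lactosamine chains on glycans, was at 27.97, 30.8, 30.6, 28.4 and 25.4 CPM with doxorubicin and 12.7, 17.02, 28.2, 19.5 and 7.90 CPM with both, with 4 of 5 libraries with histidine below all 5 without it and a log2 fold change of -0.75 ± 0.21. Among the others were Cdkn2aipnl (-0.51 ± 0.13), Agpat2 of phosphatidic acid synthesis (-0.36 ± 0.091), Tmcc2 (-0.32 ± 0.084), the chromatin ATPase Ruvbl2 (-0.24 ± 0.065), Derpc (-0.24 ± 0.068), Wdr53 (-0.57 ± 0.16) and the mitochondrial ribosome gene Mrpl34 (-0.45 ± 0.13). Each had an adjusted p of 0.39. Without doxorubicin replicate 4, which was the highest for both, Cdkn2aipnl was at -0.31 and Mrpl34 at -0.26, and without replicates 3 and 4 Cdk1 was at -0.29, Uchl1 at -0.25 and Wdr53 at -0.35.

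Nuclear genes of the respiratory chain, the electron carriers of mitochondria, had lower values by an amount that depended on doxorubicin replicate 4. Of 48 tested, 45 were below 0 and 18 (37.5%) were lower at an unadjusted p under 0.05, beside 51.9% and 8.27% of all genes, with a median of -0.35. Their summed level was 3692, 3734, 3862, 7126 and 3832 CPM with doxorubicin and 3713, 3395, 3812, 3607 and 3756 CPM with both. Doxorubicin replicate 4 alone was high, and without it the median was -0.046 with 33 of 48 below 0 and 1 member at an unadjusted p under 0.05; without replicates 3 and 4 it was -0.027, with 31 below 0 and 0 members at that p. Cox7b, a small subunit of cytochrome oxidase, shows this at 45.1, 50.4, 55.2, 271 and 46.6 CPM with doxorubicin and 46.9, 49.2, 41.3, 43.7 and 47.7 CPM with both. Its log2 fold change was -1.03 ± 0.37 with that library and -0.11 without it. Cox6c and Cox7c gave -1.01 and -0.94, and 0.0053 and -0.022 without it. NRF2 and antioxidant genes shared part of this dependence. Of 29, 23 were below 0 and 9 (31%) were lower at an unadjusted p under 0.05, beside 51.9% and 8.27% of all genes. At that p 4 were lower and 1 higher without replicate 4, beside 3.75% and 3.55% of all genes. Without replicates 3 and 4, 1 was lower (3.4%), beside 2.46%. The median of -0.17 was -0.072 without replicate 4 and -0.018 without replicates 3 and 4. The glutathione peroxidase Gpx4 went from -0.50 to -0.17, while Ucp2, a mitochondrial carrier, was at -0.35 and -0.34. The quinone reductase Nqo1 stood at -0.31 ± 0.14, or -0.11 without replicates 3 and 4, and heme oxygenase Hmox1 at -0.17 ± 0.13, neither past the test.

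Inflammatory genes had mostly lower values, and the size depended on doxorubicin replicates 3 and 4. Of 31 inflammatory and NF-kB genes, 28 were below 0 and 9 (29%) were lower at an unadjusted p under 0.05, beside 51.9% and 8.27% of all genes. Without replicates 3 and 4, 1 was, beside 2.46% of all genes. The median was -0.27, -0.31 without replicate 4 and -0.088 without replicates 3 and 4. The monocyte attractant Ccl2 was at 681, 693, 1247, 2304 and 675 CPM with doxorubicin and 625, 609, 685, 652 and 580.4 CPM with both. Doxorubicin replicates 3 and 4 were high, the other 3 lay close to the libraries with histidine, and the log2 fold change of -0.83 ± 0.30 was -0.12 without both. The nitric oxide synthase Nos2 had 80.0 CPM in doxorubicin replicate 3 against 1.72 to 6.10 CPM in the other 4, and its value of -2.62 ± 0.99 was -0.69 without replicates 3 and 4. The cytokine Il6 stood at 98.7, 88.1, 153, 148 and 81.2 CPM with doxorubicin and 79.1, 81.2, 82.1, 68.8 and 68.7 CPM with both, with a log2 fold change of -0.58 ± 0.28 (edgeR adjusted p = 0.397), or -0.23 without replicates 3 and 4. Secreted factors of senescent cells gave a like picture, with 30 of 36 below 0 and 9 (25%) lower at an unadjusted p under 0.05, beside 51.9% and 8.27% of all genes. Their median of -0.29 was -0.10, with 0 at that p, without replicates 3 and 4. This list shares members such as Ccl2 and Ccl7 with the inflammatory one.

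Leukocyte transcripts were scarce in both groups. The 14 macrophage and leukocyte markers summed to 194 to 332 CPM with doxorubicin and 190 to 222 CPM with both, against 3331 ± 96.8 CPM with PBS, and Fcer1g, the Fc receptor gamma chain, made up most of it. Of the 14, 11 were below 0 and 4 (28.6%) were lower at an unadjusted p under 0.05, beside 51.9% and 8.27% of all genes. Without doxorubicin replicate 4, 7 were below 0 and 2 (14.3%) lower at that p, beside 3.75% of all genes. The median was -0.30, and 0.0085 without doxorubicin replicate 4. Cd68 of macrophage lysosomes was at -0.53 ± 0.16 and the leukocyte antigen Ptprc at 0.0016 ± 0.24. Among the 20 genes DESeq2 called were several of white blood cells, named after their values were seen, which had few reads. Ly86, a partner of a Toll-like receptor family member, had 6, 0, 12, 25 and 6 reads with doxorubicin and 0 in all 5 libraries with both, which is at least 16.4-fold lower when the group total is set at its upper limit of 3 reads, or at least 10.4-fold without doxorubicin replicate 4, which held 25 of the 49 reads. Lst1 had 66 reads over the doxorubicin group and 3 over the other, all from replicate 5; the ratio was 22.0 (95% interval from the counts 7.22 to 109.6), and 16.4 without doxorubicin replicate 4. Plek, which encodes pleckstrin, had 116 and 42 reads, a ratio of 2.77 (interval 1.93 to 4.04). These intervals cover counting error only, and in edgeR's test the adjusted p was 0.139, 0.167 and 0.167. With PBS Ly86, Lst1 and Plek stood at 5.42, 19.1 and 13.2 CPM, far above their levels under the drug. The filter and the estimate of spread used all 4 groups. These adjusted p and the calls by DESeq2 therefore rest in part on libraries outside the comparison. With histidine alone the same genes differed from PBS by -0.11, 0.0096 and 0.034 on the log2 scale.

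**Figure D4:**
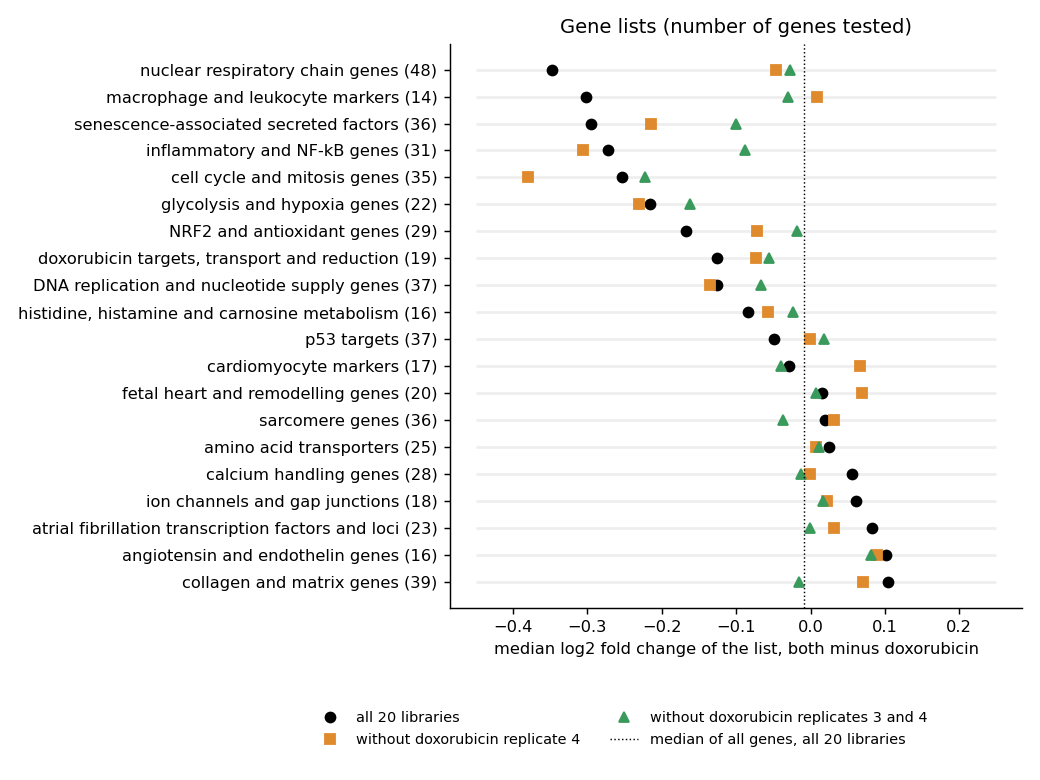
Median log2 fold change of histidine plus doxorubicin against doxorubicin for 20 gene lists, with the number of genes tested in brackets. Black circles use all 20 libraries, orange squares leave out doxorubicin replicate 4 and green triangles leave out replicates 3 and 4; the respiratory chain moves from -0.35 to -0.046, while the cell cycle list stays at -0.22 or below.

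Heart muscle genes were near 0. Of 36 sarcomere genes 16 were below 0, 1 was higher (2.8%) and 4 lower (11.1%) at an unadjusted p under 0.05, beside 4.29% and 8.27% of all genes, and the median was 0.020. The 17 cardiomyocyte markers had a median of -0.028 and the 28 calcium handling genes one of 0.055. Without doxorubicin replicates 3 and 4 these 3 medians were -0.037, -0.039 and -0.013. The cardiac myosin Myh6 stood at 14.6, 12.6, 11.4, 5.19 and 9.69 CPM with doxorubicin and 10.8, 8.62, 14.2, 8.70 and 11.7 CPM with both, with overlapping groups and a log2 fold change of 0.012 ± 0.19 (95% interval -0.39 to 0.41). Myh7 was at 0.18 ± 0.16, troponin T (Tnnt2) at -0.028 ± 0.076, cardiac actin (Actc1) at -0.19 ± 0.094 and the ryanodine receptor Ryr2, the calcium release channel, at 0.36 ± 0.24, or 0.15 without doxorubicin replicate 4. Titin (Ttn), the molecular spring of the sarcomere, ranged from 14.6 to 21.4 CPM with doxorubicin and from 21.5 to 23.4 CPM with both, so the groups did not overlap, at 0.29 ± 0.14 (edgeR adjusted p = 0.395). The calcium channel Cacna1c also had groups that did not overlap, at 0.38 ± 0.14, or 0.14 without doxorubicin replicates 3 and 4. The fetal troponin gene Tnni1 was at -0.98 ± 0.29 and the atrial myosin light chain Myl7 at -0.62 ± 0.28, both with under 7 CPM in every library. Doxorubicin replicate 4 had 6.11 CPM of Myl7 against 1.57 to 3.30 CPM in the other 4, and the difference without it was -0.17. The natriuretic peptide Nppb, a marker of wall stress, was at 6.13, 5.63, 13.7, 13.9 and 5.28 CPM with doxorubicin and 4.53, 5.61, 6.31, 3.33 and 4.71 CPM with both. Doxorubicin replicates 3 and 4 were the highest, and -0.87 ± 0.26 turned to -0.21 without them. Nppa was at -0.27 ± 0.25, and at 0.23 without replicate 4, which had 134 CPM.

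The 18 ion channel and gap junction genes had 0 members at an unadjusted p under 0.05 in either direction, with a median of 0.061. The gap junction gene Gja1 averaged 481 ± 24.7 CPM with doxorubicin and 444 ± 25.6 CPM with both, yet its SE was large (-0.12 ± 0.81), since the spread of all 4 groups enters the fit. Of 23 transcription factors and genes near loci of atrial fibrillation, 2 were higher (8.70%) and 1 lower (4.35%) at an unadjusted p under 0.05. The shares of all genes were 4.29% and 8.27%. The lower gene was Nkx2-5, the cardiac homeobox factor, at 1.40, 2.29, 1.68, 3.67 and 2.13 CPM with doxorubicin and 1.004, 1.24, 1.31, 1.45 and 1.27 CPM with both and a log2 fold change of -0.84 ± 0.21. The higher ones were Myocd (0.55 ± 0.20), a coactivator of muscle genes, and Isl1 (0.39 ± 0.15), a factor of heart progenitors. Of 16 angiotensin and endothelin genes, 2 (12.5%) were higher at that p, the natriuretic peptide receptors Npr1 (0.23 ± 0.10) and Npr2 (0.19 ± 0.081), and 1 (6.25%) was lower, Hsd11b1 (-0.52 ± 0.22), which activates glucocorticoid. Without replicates 3 and 4 Myocd was at 0.35, Npr1 at 0.15, Npr2 at 0.063 and Hsd11b1 at -0.20.

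Matrix genes leaned upward and sugar metabolism downward. Of 39 collagen and matrix genes, 8 were below 0, 5 (12.8%) were higher at an unadjusted p under 0.05 beside 4.29% of all genes, and 0 were lower. The median of 0.10 was -0.016 without doxorubicin replicates 3 and 4, so this direction rested on those libraries. Timp3, an inhibitor of matrix proteases (0.31 ± 0.11), Col14a1 (0.37 ± 0.13), Col12a1 (0.31 ± 0.12) and periostin (Postn, 0.34 ± 0.14) had the smallest p, and Timp3, Col14a1 and Col12a1 were at 0.16, 0.18 and 0.071 without those libraries. Of 22 glycolysis and hypoxia genes, 20 were below 0 and 6 (27.3%) were lower at an unadjusted p under 0.05, beside 51.9% and 8.27% of all genes. Without replicates 3 and 4, 2 were lower, beside 2.46% of all genes. The median was -0.22, -0.23 without replicate 4 and -0.16 without replicates 3 and 4. The glycolytic enzyme genes Pgk1, Gpi, Pfkl and Pgam1 were at -0.38, -0.31, -0.28 and -0.21, and at -0.23, -0.23, -0.29 and -0.16 without both libraries.

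Of the genes that handle the added compounds, 0 passed the adjusted test. Of 16 genes of histidine, histamine and carnosine metabolism, 13 were below 0, beside 51.9% of all genes, and 0 had an unadjusted p under 0.05. The median was -0.083, or -0.024 without doxorubicin replicates 3 and 4, where 10 were below 0. With only replicate 4 left out, 2 (12.5%) were lower at that p, beside 3.75% of all genes. Hars1, which charges transfer RNA with histidine, stood at 78.7, 83.6, 84.9, 81.8 and 86.2 CPM with doxorubicin and 74.1, 73.5, 79.3, 77.2 and 81.3 CPM with both, with overlapping groups and -0.11 ± 0.052. The histidine decarboxylase Hdc and the histamine receptor Hrh1 were under 1 CPM in all 10 libraries and did not pass edgeR's test. With so few reads a difference is neither shown nor excluded. Of 25 amino acid transporters, 1 was higher (4%) and 2 lower (8%) at an unadjusted p under 0.05, beside 4.29% and 8.27% of all genes. Slc7a5, which carries histidine, was at 0.14 ± 0.12. For the drug itself, 19 genes of its targets, transport and reduction were tested. At that p 1 was higher (5.3%) and 4 lower (21.1%), beside 4.29% and 8.27% of all genes. Leaving out doxorubicin replicate 4 gave 4 lower (21.1%), beside 3.75%, and leaving out replicates 3 and 4 gave 2 (10.5%), beside 2.46%. The median was -0.13, and -0.073 and -0.056 in those fits. The efflux pump Abcb1b was at 0.041 ± 0.12 and topoisomerase Top2b, the form of resting cells, at 0.19 ± 0.084. Cyba, a subunit of NADPH oxidase, was at -0.65 ± 0.21, or -0.29 without doxorubicin replicate 4, which had 172 CPM.

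The histidine difference under the drug was not shown to differ from that without it. The interaction gave 0 of 15449 genes (0%) in edgeR's test and 15 in DESeq2's, with 1060 (6.86%) at an unadjusted p under 0.05, 3.44% of genes higher and 3.42% lower; limma gave 0. Histidine against PBS gave 0 genes (0%) and 312 (2.02%; 0.861% higher and 1.16% lower), with 5 genes called by DESeq2 and 1 by limma. Both contrasts share the fit, so the count of 312 does not measure how alike those 2 groups are. Among genes with a mean of at least 5 CPM, those of smallest p in the interaction were Nr2f2 (0.28 ± 0.077), Pdzd2 (0.55 ± 0.15), Mlst8 of the mTOR complexes (0.92 ± 0.22), Itga7 (0.35 ± 0.10) and Ldah (3.42 ± 0.80) on the higher side, and Cdk1 (-0.63 ± 0.18), Ube2l6 (-0.89 ± 0.22), Ddx39a (-0.32 ± 0.10), the protease inhibitor Slpi (-1.60 ± 0.51) and Nop9 (-0.35 ± 0.10) on the lower. Each had an adjusted p of 0.63. Prkaa2, Chaf1b, Ly86 and Lst1, with lower levels, had smaller p. Ldah, a lipid droplet protein gene, stood at 16.7 ± 8.75 CPM (SD, n = 5) with PBS and 1.87 ± 0.289 CPM with histidine, a log2 fold change of -3.15 ± 0.60 that did not pass edgeR's test (adjusted p = 0.361) but passed without PBS replicate 3 (-3.45, adjusted p = 0.0154) and in DESeq2's test (adjusted p = 0.000445). Under the drug 1 library, doxorubicin replicate 5, was low (1.40 CPM against 22.1 to 25.1 CPM in the other 4), and without it the difference was -0.028 and the interaction 3.12. Immediate-early Egr1 had a difference of -0.42 ± 0.11 without the drug and of 0.12 ± 0.11 with it, and its interaction of 0.54 ± 0.16 did not pass.

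**Figure D5:**
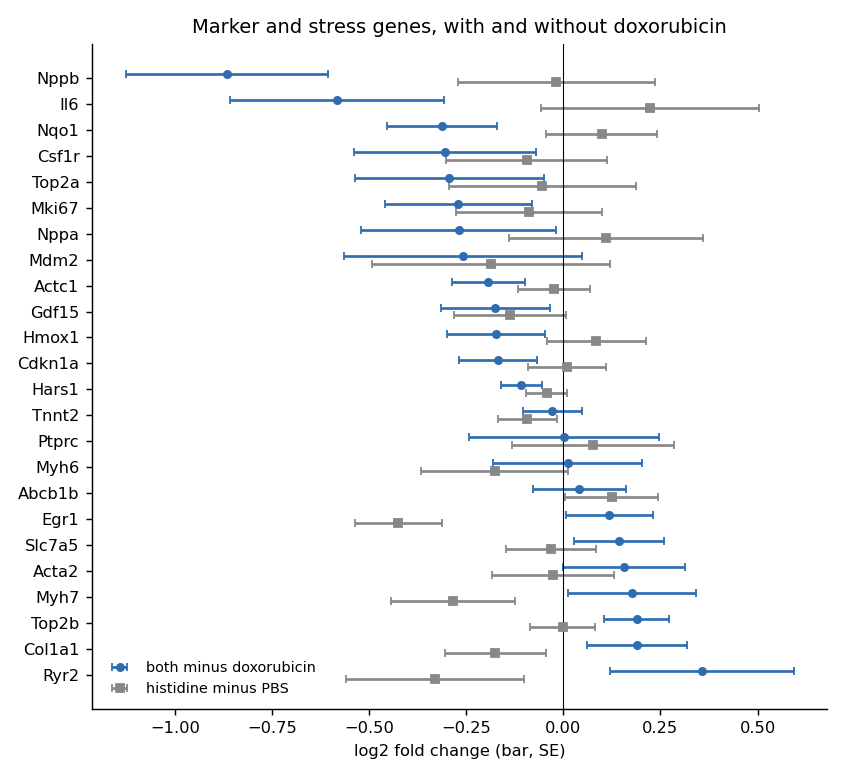
Log2 fold changes with SE for 24 marker and stress genes, blue circles for histidine plus doxorubicin minus doxorubicin and grey squares for histidine minus PBS. Myh6 lies at 0.012 and Nppb at -0.87 with the drug; no gene passed in either contrast.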

How the data were processed

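Per the file headers, the deposited table gives the authors' read counts per gene as whole numbers, with no normalisation, beside FPKM that the authors scaled to gene length and library size. The submitters' processing notes name Trimmomatic and mRatBN7.2; which aligner, counter and annotation were used is not given in the sources used here. RNA was captured with oligo(dT) and the strand was not marked, per the labels' protocols, so antisense or overlapping neighbours cannot be told apart, and near-identical paralogs are uncertain. All 20 libraries were fitted together with edgeR 4.0.16 (filterByExpr, TMM, quasi-likelihood F test, 4 groups, no block), with DESeq2 1.42.0 and limma 3.58.1 as alternatives. The SE is the log2 fold change divided by the square root of F. CPM are counts scaled by TMM to 1000000 reads, given per library or as mean ± SD. Total counts were 54072746 to 83624651 in the 10 libraries. Within each of the 2 groups, the chi-square of every pair of libraries, 20 pairs in all, was 37.1 to 645 times its degrees of freedom, so no library was a copy of another. The procedure was tested on simulated data. Symbols came from a RefSeq gene table of GRCr8, used only for names, and from protein names in the table. The 43 gene lists and the members were chosen with earlier results of these data known, so counts are given with no test of a list. Named were the 12 genes per direction with the smallest p and a mean of at least 5 CPM, 5 per direction for the interaction, up to 4 members of each described list, a fixed panel of 27 genes, and others where stated. Of the symbols, 12 were assigned by protein name after p-values were seen. Some genes the rule named are not reported here.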

Additional observations from a re-analysis of the deposited data

Results flagged for a closer look

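A level is given here where the highest or lowest of the 5 libraries of a group lay far from the other 4 by Dixon's ratio, with the range of the other 4 in brackets, all in CPM. Chance gives about 1 group in 20. Of 278 combinations of a named gene and a group, 40 (14.4%) were of this kind, and 18 of them were doxorubicin replicate 4; genes were named in part for their small p, so these shares describe the named genes only.

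In doxorubicin replicate 4 the level was far above the other 4 for Cdkn2aipnl (55.6 against 30.1 to 33.4), Mrpl34 (20.5 against 10.8 to 13.3), Ube2l6 (30.6 against 15.9 to 18.2), Sln (1.88 against 0.0830 to 0.504), Cyba (172 against 63.9 to 74.1), Slpi (23.7 against 5.65 to 9.91) and Cox7b (271 against 45.1 to 55.2). This was also so for Gpx4 (471 against 190.1 to 220.03), Atp5f1b (988 against 732 to 793), Cox6c (262 against 40.1 to 45.1), Cox7c (357 against 61.2 to 71.8), Cd82 (344 against 103 to 105), Ccl20 (22.6 against 2.84 to 7.80) and Orai1 (25.6 against 10.8 to 12.8). This was also so for Akr1a1 (722 against 415 to 445), Tyrobp (6.56 against 0.854 to 1.07), Cdkn1a (1421 against 952 to 1048) and Nppa (134 against 34.5 to 51.6). Doxorubicin replicate 3 stood high for the inflammation and remodelling genes Nos2 (79.96 against 1.72 to 6.10), Mmp13 (7.01 against 0.116 to 0.644) and Spp1 (1018 against 360.3 to 435). The same library was low for Timp3 (44.97 against 69.9 to 78.5). Doxorubicin replicate 5 stood high for Mlst8 (26.3 against 15.2 to 16.995). It stood low for Ldah (1.40 against 22.1 to 25.1). With both compounds, replicate 3 was high for Fgr (4.09 against 2.41 to 2.86), Ucp2 (132 against 82.9 to 91.2), Nos2 (6.89 against 1.74 to 3.08), Pgam1 (706 against 602 to 612), Nqo1 (411 against 329 to 352) and Kcnj8 (14.1 against 11.3 to 11.9). That library was low for Timp3 (73.7 against 85.3 to 89.3) and Myocd (6.80 against 8.83 to 9.18). Replicate 2 with both compounds was high for Usp11 (60.4 against 56.4 to 57.3) and Hrh1 (0.413 against 0 to 0.0780). It was low for Slc43a2 (34.1 against 39.5 to 41.3) and Cav1 (12.8 against 477 to 580.5). Replicate 5 with both compounds was high for Chaf1b (3.52 against 2.76 to 2.90), Lst1 (0.0463 against 0 in the other 4) and Tnnt2 (59.2 against 48.9 to 51.6). It was low for Mdm2 (133 against 464 to 525). The part of these libraries in the results was not tested beyond the values given with and without them.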

How the results depend on the processing

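No gene passed in edgeR's test of the main comparison with the counts as deposited, and the count stayed at 0 with the replicate block, with only the 2 groups fitted (767 genes at an unadjusted p under 0.05, against 1940), with DESeq2's size factors, without a filter, with a filter of 1 CPM, with robust dispersions and with limma. It was 2 with library totals only, 20 with DESeq2's Wald test and 2 without doxorubicin replicates 3 and 4, and leaving out 1 library gave 0 to 6: 2, 6, 1 and 4 without doxorubicin replicates 1 to 4, 1 without replicate 5 of both compounds. The interaction gave 15 with DESeq2 and 0 to 2 without 1 library, histidine against PBS (667 genes at an unadjusted p under 0.05 with only those 2 groups fitted, against 312) 5 with DESeq2, 1 with limma on log2(FPKM + 1), 1 without doxorubicin replicates 3 and 4, and 0 to 1 without 1 library. The cause was not tested. Deviations of same-numbered libraries correlated at -0.003 to 0.05 between the 2 groups with doxorubicin and at -0.0305 to 0.193 between PBS and histidine. Replicates 4 and 5 of the former and 1 and 3 of the latter matched best with their own number. These values do not settle whether replicate numbers pair the libraries. A replicate block gave 0 calls, with 1909 genes at an unadjusted p under 0.05.

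Log2 fold changes changed sign without doxorubicin replicates 3 and 4 for Cox6c (0.029), Cox7c (0.025), Ccl20 (0.20), Tyrobp (0.017), Col1a1 (-0.035), Slc7a5 (-0.015), Scn4b (0.020), Myh7 (-0.039), Nppa (0.14), Egr1 (-0.075), Abcb1b (-0.020), Myh6 (-0.19) and Ptprc (-0.27). Tnnt2 did so with library totals (0.0067) and with limma (0.0018 with a pseudocount of 1 and of 0.1), and Ptprc with the 2 groups alone (-0.0019), DESeq2's size factors (-0.00016) and DESeq2's test (-0.0022). Leaving out 1 library turned 11 genes, with ranges of Cox6c (-1.19 to 0.0053), Tyrobp (-1.21 to 0.089), Nppa (-0.42 to 0.23), Kcnj8 (-0.0056 to 0.24), Ldah (-0.028 to 0.38), Tnnt2 (-0.080 to 0.011), Abcb1b (-0.056 to 0.10), Hrh1 (-2.54 to 0.22), Hdc (-0.48 to 0.00042), Myh6 (-0.16 to 0.15) and Ptprc (-0.14 to 0.18). None of these was past the test. Genes of few reads, such as Ly86, Lst1 and Hrh1, are limited by depth.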

Other observations

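The gene groups in this paragraph had medians between -0.10 and 0.14, and 0 of their members passed edgeR's test. Higher and lower here mean at an unadjusted p under 0.05, which held for 4.29% and 8.27% of all genes. Of all genes 51.9% were below 0. Of 33 fatty acid oxidation genes, 24 were below 0 and 5 lower at an unadjusted p under 0.05 (8.27% of all genes were), with a median of -0.10, or -0.078 without doxorubicin replicates 3 and 4; Acads, which dehydrogenates short acyl chains, was at -0.54 ± 0.19 and Hadhb of the trifunctional protein at -0.18 ± 0.082. Of 29 autophagy and lysosome genes, 5 were lower, among them the protease genes Ctsl (-0.35 ± 0.14) and Ctsd (-0.17 ± 0.074), with a median of -0.091 that was -0.010 without those libraries. Of 25 immediate-early genes, 4 (16%) were lower, and the AP-1 subunit gene Fosl1 was at -0.45 ± 0.16. Of 33 DNA damage and repair genes, 3 were higher (9.1%) and 2 lower (6.1%), with Rad50 at 0.23 ± 0.082 and Fancd2 at -0.37 ± 0.16. Of 22 adrenergic and cyclic AMP genes, 3 (13.6%) were higher: the phosphodiesterase Pde3a (0.40 ± 0.13), the cyclase Adcy5 (0.26 ± 0.098) and the anchor Akap6 (0.49 ± 0.22). In that list 0 were higher without doxorubicin replicates 3 and 4. Of 20 iron handling and ferroptosis genes, 2 (10%) were higher, the iron exporter Slc40a1 (0.46 ± 0.13) and ceruloplasmin (Cp, 0.22 ± 0.067), and 4 (20%) lower. Of the 20, 10 were below 0, and the median was 0.0042. Leaving out doxorubicin replicate 4 gave 2 higher and 3 lower, and leaving out replicates 3 and 4 gave 2 and 0. Of 12 smooth muscle and pericyte markers, 2 (16.7%) were higher, Pdgfrb (0.30 ± 0.10) and Myh11 (0.32 ± 0.13), with a median of 0.14. Leaving out doxorubicin replicates 3 and 4 gave 0 higher and a median of 0.091. The 37 interferon-stimulated genes had 2 higher (5.4%) and 2 lower (5.4%), and the 13 mitochondrially encoded genes 0 in either direction. These examples were chosen after their values were seen.

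Some genes were nearly on or off between libraries of one treatment. In 99 genes the level varied at least 20-fold among the 5 libraries of doxorubicin (75 genes), of both compounds (60 genes) or of each, with a highest level of at least 5 CPM. Of the 99, 8 had an unadjusted p under 0.05, beside 12.6% of all genes. They were picked for a wide spread within a group, which itself makes a small p less likely. This share therefore cannot tell how such genes enter the calls. Agtr1a, the angiotensin II receptor, stood at 103, 88.1, 0.434, 0.676 and 71.4 CPM with doxorubicin. Cav1, which encodes the caveolae protein caveolin-1, had 13.7 and 11.7 CPM in doxorubicin replicates 1 and 2 against 418 to 570 CPM in the other 3, and with both compounds 12.8 CPM in replicate 2 against 477 to 580.5 CPM. Foxm1, a transcription factor of mitosis, had 0.216, 8.03, 7.15, 0 and 8.36 CPM with doxorubicin, and the sphingosine phosphate receptor gene S1pr2 0.795 CPM in replicate 4 against 59.9 to 63.0 CPM. Trim32, a ubiquitin ligase gene, had 0.0136 and 0.0154 CPM in replicates 1 and 5 of both compounds and 42.5 to 45.9 CPM in the other 3. These genes were picked after the data were seen, and what sets their levels was not tested.

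DESeq2 also called genes beyond those described, again singled out afterwards. Il10, an anti-inflammatory cytokine, had 72 reads over the 5 libraries with doxorubicin and 12 over those with both compounds, a ratio of 6.01 (95% interval from the counts 3.24 to 12.2), or 4.32 without doxorubicin replicate 4. It stood at 6.04 CPM with PBS, and the filter and the estimate of spread used those libraries too. The cotransporter Slc4a5 was at 1.41 ± 0.40, the inflammasome gene Nlrc4 at 1.24 ± 0.40, the Src-family kinase gene Fgr at -0.72 ± 0.16, Tpi1l1 at -0.66 ± 0.15 and C1h16orf54 at -1.74 ± 0.48. None passed edgeR's test.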
